A study of Mus musculus with 21 samples.

Results

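The transcripts that mark B cells and plasma cells were examined in podocyte fractions from the kidneys of young and middle-aged mice. The 9 genes were chosen by name for their known role, with earlier results of these data known, out of 27179 genes counted. They were Ms4a1, Cd79a, Cd79b and Pax5 for B cells, and Mzb1, Sdc1, Prdm1, Irf4 and Tnfrsf17 for plasma cells. All 9 passed the filter on low counts, which kept 16377 genes for testing. The fractions came from male wildtype C57BL/6J mice. Young mice were 4 months old and untreated (n = 6). Middle-aged mice were killed at 19.5 months, after 6 weeks of intraperitoneal injections begun at 18 months, with either saline alone (n = 7) or MCC950, an inhibitor of the NLRP3 inflammasome, at 10 mg/kg in saline (n = 8). The young mice received no injections, so age and the injections cannot be told apart in comparisons with them. Podocytes were labelled in digested kidney cortex with an antibody against nephrin and pulled out with magnetic beads that bind that antibody, so other cells carried along contribute RNA to a library. Each library is 1 sample of its group.

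B cells are lymphocytes that carry an antibody on their surface, held there by the CD79A and CD79B signalling chains, and Pax5 keeps them in that state. After activation, Irf4 and Prdm1 switch off the B cell program, Pax5 included, and turn the cell into a plasma cell, which secretes antibody in bulk. Lymphocytes of this kind are scarce in the healthy young kidney and gather in kidneys with chronic inflammation.

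The libraries held 27375870 to 36827823 counts in the young group, 45772937 to 84876399 in the saline group and 35440472 to 58247271 in the MCC950 group. Mitochondrial genes took 69.3% ± 9.82 (SD, n = 6) of the counts in young, 69.6% ± 5.32 (SD, n = 7) in saline and 56.4% ± 4.46 (SD, n = 8) in MCC950 libraries. Every one of 10 podocyte markers was detected, but their summed level ran from 708 to 1537 CPM (counts scaled to a common library size) in young, 298 to 525 in saline and 374 to 591 in MCC950 libraries, and 9 of the 10 were lower in saline than in young. In bulk RNA, fewer cells of a type and less RNA per cell cannot be told apart, and this holds for every level given here.

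RefSeq promoter windows (the 250 bases upstream of 1 transcript start a gene, GRCm38.p6) were given for 6 of the 9 genes. For Tnfrsf17 and Prdm1 the start used lies inside the gene's full extent, so their windows do too. Cd79a and Tnfrsf17 are shown because they stand for the B cell and the plasma cell ends of the group, and each holds a match to 1 of 4 motifs searched on both strands. Capitals mark the match. Cd79a lies on chromosome 7 at 24897497 to 24901858 on the plus strand and its window is chr7:24897247-24897496. Tnfrsf17 lies on chromosome 16 at 11313232 to 11320074 on the plus strand and its window is chr16:11313559-11313808.
Cd79a: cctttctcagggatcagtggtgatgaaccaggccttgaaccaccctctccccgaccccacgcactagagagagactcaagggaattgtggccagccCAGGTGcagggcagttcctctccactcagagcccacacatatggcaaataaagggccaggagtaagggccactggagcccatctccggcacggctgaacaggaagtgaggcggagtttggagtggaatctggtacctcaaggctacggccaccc
Tnfrsf17: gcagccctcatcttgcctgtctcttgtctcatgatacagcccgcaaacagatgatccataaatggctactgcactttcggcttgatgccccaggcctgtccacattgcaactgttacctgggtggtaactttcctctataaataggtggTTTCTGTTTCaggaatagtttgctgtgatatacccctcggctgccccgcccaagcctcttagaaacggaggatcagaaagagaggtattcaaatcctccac
The Cd79a match, 154 bases upstream of that start, is to the E-box CAGGTG, a sequence bound by E proteins of early B cells, and 17.2% of 32851 promoters of this length hold that motif. The Tnfrsf17 match, is to 2 copies of GAAA set 2 bases apart, on the opposite strand, a sequence of the kind that interferon regulatory factors bind, and 2.98% of promoters hold it. Prdm1 also held the E-box. The octamer ATGCAAAT (1.6% of promoters) and the EBF-type pair TCCC and GGGA set 2 bases apart (0.779%) matched none of the 6 windows. Pax5, Sdc1 and Irf4 held none of the 4. Only exact matches to these letters were counted. Binding sites that depart from them, such as EBF sites with 1 imperfect side, could not be found, so a missing match does not show a missing site.

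All 9 genes had higher fitted levels in saline than in young fractions, and 5 passed the test: Cd79b, Mzb1, Sdc1, Irf4 and Tnfrsf17 (edgeR quasi-likelihood test, Benjamini-Hochberg adjusted p under 0.05). Of all genes tested, 12.2% were higher and 12.4% lower by this rule, and none of the 9 was lower. The median log2 fold change of the 9 was 0.86, beside 0.02 for all genes. Mzb1 and Tnfrsf17, both plasma cell genes, had the largest differences of the group. The comparison set saline-injected middle-aged mice against untreated young mice. The part of age in these differences, apart from the injections, was not tested.

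**Figure D1:**
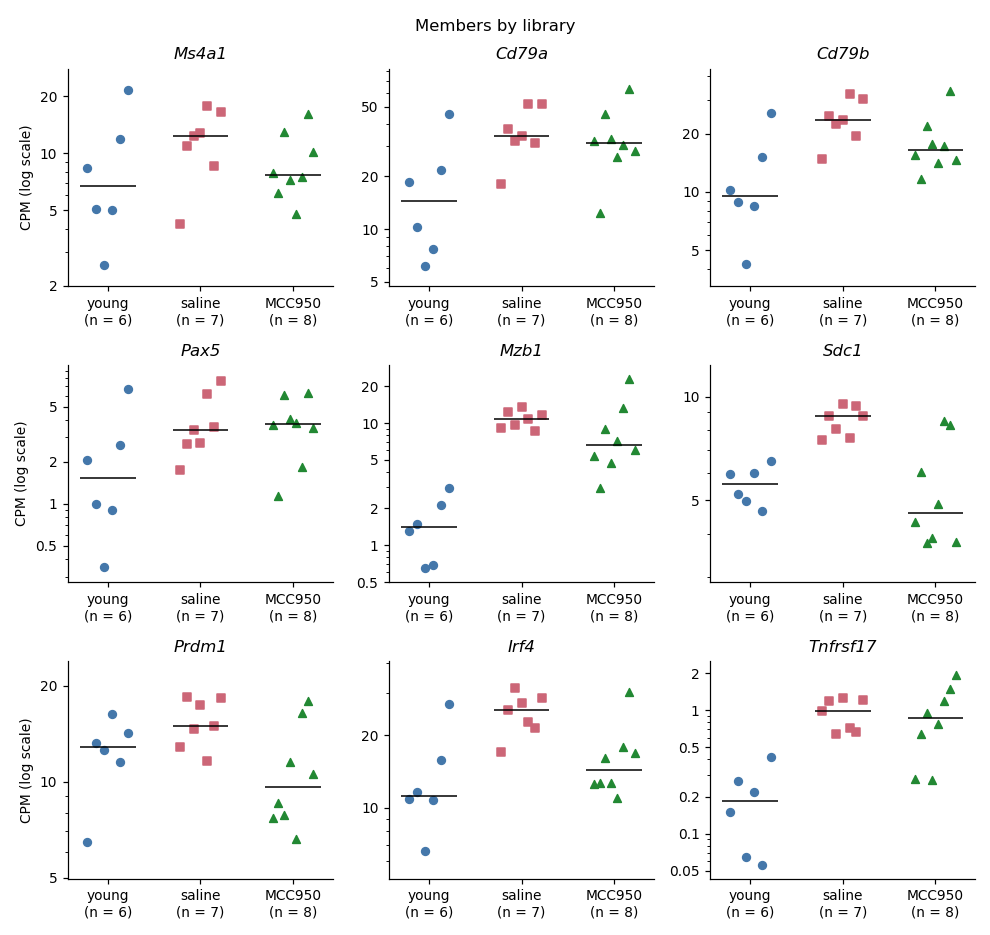
Level of each of the 9 genes in every library, in TMM-scaled CPM on a log axis that differs between panels. Each symbol is 1 library, and the lines are group medians; for Mzb1, Sdc1 and Tnfrsf17 all saline libraries lie above all young ones.

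Cd79a encodes the Igα chain of the B cell receptor complex. Its level ran from 6.13 to 45.2 CPM in young libraries (median 14.4) and from 18.1 to 52.0 CPM in saline libraries (median 33.8). The groups overlapped, because the highest young library stood above most saline ones. The log2 fold change was 1.01 ± 0.40 (SE, adjusted p = 0.0682), which did not pass, though it passed with DESeq2 (adjusted p = 0.0352) and without saline replicate 1 (adjusted p = 0.0479). Cd79b, on chromosome 11 at 106311341 to 106314562, encodes the partner chain Igβ. It measured 4.23 to 25.6 CPM in young (median 9.54) and 14.9 to 32.0 CPM in saline libraries (median 23.6). Here too the ranges overlapped, but the gene rose by 0.99 ± 0.31 (SE, adjusted p = 0.0222). That call was lost without young replicate 2 (adjusted p = 0.0554), 3 (0.0549) or 4 (0.0514).

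Ms4a1, on chromosome 19 at 11249679 to 11266149, encodes CD20, a surface protein of B cells that plasma cells lose. It ran from 2.58 to 21.5 CPM in young (median 6.72) and from 4.21 to 17.8 CPM in saline libraries (median 12.3). Both the lowest and the highest of these libraries were young. The log2 fold change was 0.40 ± 0.39 (SE, adjusted p = 0.492). Pax5, on chromosome 4 at 44524748 to 44710694, encodes the transcription factor that holds B cell identity. It ran from 0.355 to 6.73 CPM in young (median 1.53) and from 1.75 to 7.67 CPM in saline libraries (median 3.42), with a log2 fold change of 0.83 ± 0.51 (SE, adjusted p = 0.243). The ranges overlapped, and the young libraries spread the most of any gene of the group. The exons of Pax5 share 636 of 8853 bases with the opposite-strand model 5730488B01Rik and 125 with the antisense gene Gm12462, and reads of those stretches cannot be told apart without strand, whose use in counting is not given in the sources used here.

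Mzb1 gave the clearest separation. It lies on chromosome 18 at 35647265 to 35650266 and encodes a chaperone of the endoplasmic reticulum that helps assemble secreted IgM. Its level ran from 0.646 to 2.93 CPM in young (median 1.41) and from 8.65 to 13.4 CPM in saline libraries (median 10.7). No saline library came near the young range, and the log2 fold change was 2.85 ± 0.43 (SE, adjusted p = 9.0e-05). Of its 1215 exon bases, 695 are shared with a same-strand model named SPATA24 in the annotation, so its counts depend on how such reads were assigned.

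Tnfrsf17 encodes BCMA, the receptor through which plasma cells take up survival signals from APRIL and BAFF. It was the scarcest of the 9, with 1 to 10 raw counts in a young library and 27 to 65 in a saline library. In CPM it ran from 0.0561 to 0.418 in young (median 0.184) and from 0.636 to 1.26 in saline (median 0.994). The ranges did not overlap, and it rose by 2.27 ± 0.48 (SE, adjusted p = 0.00182). Sdc1, on chromosome 12 at 8771396 to 8793716, encodes syndecan-1, the surface proteoglycan CD138 used to sort plasma cells and also made by epithelial cells. Its ranges were narrow, 4.66 to 6.52 CPM in young (median 5.59) and 7.49 to 9.51 CPM in saline (median 8.77). They did not overlap, and the rise was 0.61 ± 0.18 (SE, adjusted p = 0.0175). In CPM over the total count with no TMM scaling they did, at 2.80 to 8.77 in young and 5.47 to 9.92 in saline libraries, whereas Mzb1 and Tnfrsf17 stayed apart. Without young replicate 3 that call was lost (adjusted p = 0.0523).

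Irf4 and Prdm1 encode transcription factors that drive plasma cell differentiation, and both are also used by T cells and myeloid cells. Irf4, on chromosome 13 at 30749233 to 30766981, ran from 6.59 to 27.1 CPM in young (median 11.2) and from 17.1 to 31.3 CPM in saline (median 25.6). One young library, replicate 6, lay among the saline libraries, and all other young libraries lay below them. The gene rose by 0.86 ± 0.26 (SE, adjusted p = 0.0216), a call lost without young replicate 2 (adjusted p = 0.0540), 3 (0.0657) or 4 (0.0521). Prdm1, on chromosome 10 at 44437174 to 44528558, encodes BLIMP-1. It ran from 6.45 to 16.3 CPM in young (median 12.9) and from 11.6 to 18.4 CPM in saline (median 15.0), with a log2 fold change of 0.32 ± 0.22 (SE, adjusted p = 0.315).

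Libraries that lay apart did so for most of the group at once. Young replicate 6 held the highest young value of 8 of the 9 genes (all but Prdm1) and young replicate 3 the lowest of 6. Among MCC950 libraries, replicate 7 was the highest for 7 of the 9 genes (all but Sdc1 and Tnfrsf17). Without young replicate 6 the count of genes higher in saline was 7, adding Cd79a (1.50 ± 0.37 SE, adjusted p = 0.00532) and Pax5 (1.53 ± 0.48 SE, adjusted p = 0.0208). Without young replicate 3 it was 2, and without young replicate 2 or 4 it was 3. The calls over all genes moved too, from 1996 of 16377 higher in the fit of all libraries. They were 2270 of 16518 without young replicate 6 and 1353 of 16511 without young replicate 3. Without young replicate 2 they were 1551 of 16508, and without young replicate 4 they were 1837 of 16506. Mzb1 and Tnfrsf17 passed in each of the 21 fits that left out 1 library. At a p under 0.05 before adjustment, Cd79a joined the 5 genes (6 of 9 higher, beside 19.2% of all genes) and none was lower (17.7%). The study's rule asked for a difference over 2-fold as well, and the study used DESeq2 for it. Applied to the edgeR fit, here and below, it left Cd79a, Mzb1 and Tnfrsf17. These were 3 of 9 higher, beside 4.04% of all genes, and none was lower, beside 2.92%. Cd79a lay at the edge, since with DESeq2 its log2 fold change was 0.992, short of 2-fold. The count whose saline libraries all lay above all young ones was also 3 of 9, beside 4.51% of all genes.

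**Figure D2:**
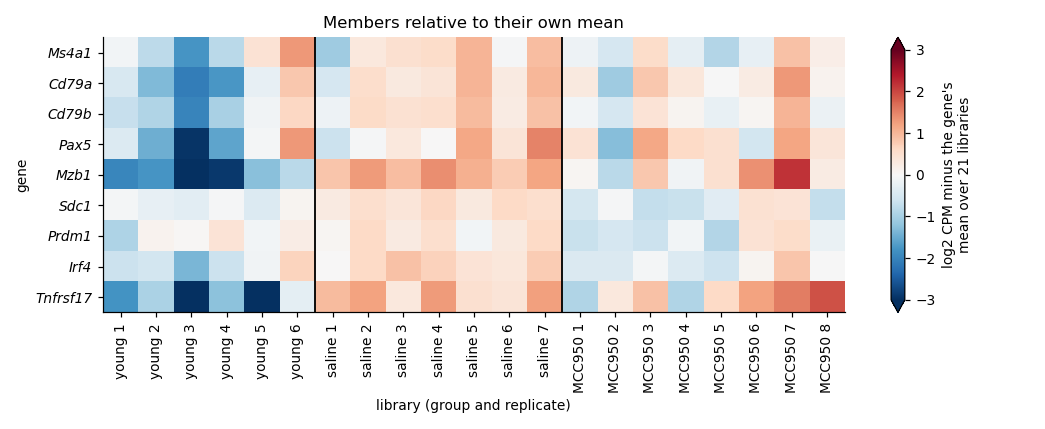
Colour gives log2 CPM of each gene minus its own mean over the 21 libraries, with 1 column per library and black lines between groups; arrowed ends of the scale hold values beyond 3. MCC950 replicate 7 stands out as a red column in its group. Young replicate 6 is red for most genes but not for Mzb1 and Tnfrsf17, and young replicate 3 is blue for most genes.

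MCC950 fractions were set against saline fractions to ask what NLRP3 inhibition changes in middle age. Sdc1 alone of the 9 genes fell, by 0.65 ± 0.16 on the log2 scale (SE, adjusted p = 0.0133), and none was higher. Of all genes tested, 4.86% were lower and 11.9% higher by this rule. DESeq2 gave the same counts, 1 lower and 0 higher, where 1250 of all 16377 genes were lower and 2200 higher. A fit of these 2 groups alone added Irf4 (adjusted p = 0.0422), and a block on replicate number, although the numbers do not pair the samples, added Irf4 (adjusted p = 0.0368) and Prdm1 (adjusted p = 0.0155). In the fit of all groups, no gene of the 9 was higher at an unadjusted p under 0.05 (20.1% of all genes). The fitted log2 fold changes were below 0 for all 9, with a median of -0.39 beside 0.003 for all genes.

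**Figure D3:**
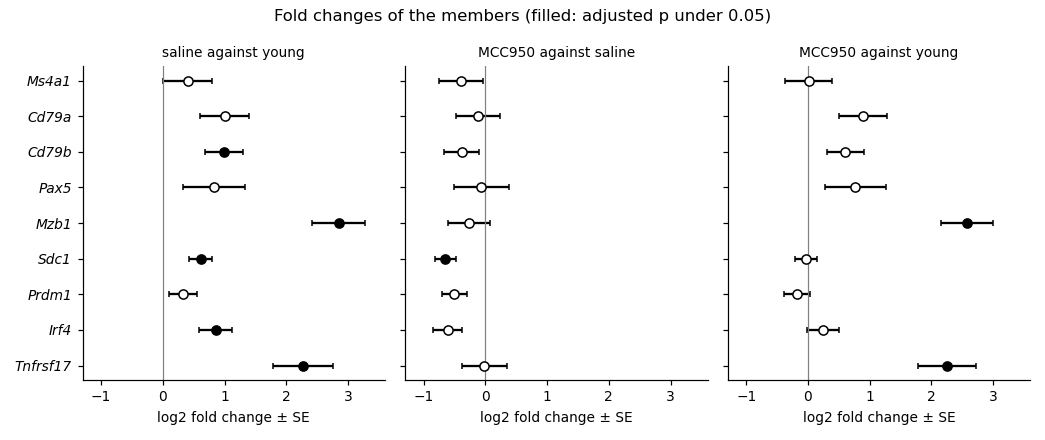
Fitted log2 fold change of each gene (points) with its standard error (bars) in the 3 comparisons, with filled points where the adjusted p was under 0.05. Filled points number 5 for saline against young, 1 for MCC950 against saline and 2 for MCC950 against young.

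Sdc1 measured 3.75 to 8.51 CPM in MCC950 libraries (median 4.60), and 6 of the 8 lay below every saline library. The same count, 6 of 8, held for the transcription factors Prdm1 (6.63 to 17.9 CPM, median 9.59) and Irf4 (11.0 to 30.2 CPM, median 14.4). With no TMM scaling these counts were 4 of 8 for Sdc1, 3 of 8 for Prdm1 and 0 of 8 for Irf4, so they depend on the scaling. Their log2 fold changes were -0.50 ± 0.21 (SE, adjusted p = 0.0971) for Prdm1 and -0.61 ± 0.24 (SE, adjusted p = 0.0824) for Irf4. Both had an unadjusted p under 0.05, as did Sdc1, and 11.4% of all genes were lower at that level. In the scaled values of all 3 genes, the libraries that reached into the saline range were MCC950 replicates 6 and 7. Without replicate 7, Irf4 fell by 0.80 ± 0.22 (SE, adjusted p = 0.0144) and Prdm1 by 0.64 ± 0.19 (SE, adjusted p = 0.0248), so that 3 genes were lower. Without MCC950 replicate 6, 2 were lower, Sdc1 and Prdm1 (adjusted p = 0.0390). Without young replicate 6, which is in neither group but in the fit, 2 were lower, Sdc1 and Irf4 (adjusted p = 0.0468). Over all genes, 796 of 16377 were lower with all libraries and 858 of 16313 without MCC950 replicate 7. The counts were 1007 of 16319 without MCC950 replicate 6 and 958 of 16518 without young replicate 6.

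The other plasma cell genes had wide ranges after MCC950. Mzb1 ran from 2.93 to 23.0 CPM (median 6.58), so that its libraries lay both below and above the whole saline range, and 5 of 8 were below it. Its log2 fold change was -0.27 ± 0.34 (SE, adjusted p = 0.624), and -0.64 (adjusted p = 0.109) without MCC950 replicate 7. Tnfrsf17 ran from 0.275 to 1.93 CPM (median 0.865) with a log2 fold change of -0.02 ± 0.36 (SE, adjusted p = 0.979). Both spreads exceeded that of the saline libraries, where the highest value of Mzb1 was 1.55 times the lowest, beside 7.87 times in MCC950 libraries.

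The B cell genes differed from saline by less than their spread. Cd79a ran from 12.3 to 63.5 CPM in MCC950 libraries (median 31.0), a log2 fold change of -0.12 ± 0.36 (SE, adjusted p = 0.854). Cd79b ran from 11.6 to 33.5 CPM (median 16.5), a log2 fold change of -0.39 ± 0.28 (SE, adjusted p = 0.359), or -0.57 (adjusted p = 0.131) without MCC950 replicate 7. Ms4a1 ran from 4.79 to 16.1 CPM (median 7.67), a log2 fold change of -0.39 ± 0.36 (SE, adjusted p = 0.484). For Pax5, at 1.13 to 6.24 CPM (median 3.76), it was -0.07 ± 0.44 (SE, adjusted p = 0.936). All 4 ranges overlapped those of saline. None of the 9 genes met the study's rule in this comparison (1.03% of all genes were lower and 1.68% higher by it), and none had MCC950 libraries wholly below saline (0.586% of all genes) or wholly above it (1.15%).

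MCC950 fractions were also set against young ones, using the same libraries as the comparisons above. Mzb1 (2.58 ± 0.42 SE, adjusted p = 9.3e-05) and Tnfrsf17 (2.25 ± 0.47 SE, adjusted p = 0.00103) were higher after MCC950. These were 2 of 9, where 21.8% of all genes were higher and 16.5% lower, and none of the 9 was lower. For Mzb1 every MCC950 library stood above every young one, though the lowest and the highest of them met at 2.93 CPM, and 3.28% of all genes separated in that direction. For Tnfrsf17, 6 of 8 MCC950 libraries stood above all young ones. The study's rule gave the same 2 genes (4.05% of all genes higher and 4.32% lower), and without its demand on fold Cd79a made 3 (27.8% of all genes higher and 20% lower). Cd79a (0.89 ± 0.39 SE, adjusted p = 0.0734), Pax5 (0.76 ± 0.49 SE, adjusted p = 0.227), Cd79b (0.61 ± 0.30 SE, adjusted p = 0.112) and Irf4 (0.25 ± 0.26 SE, adjusted p = 0.464) did not pass. Ms4a1 (0.01 ± 0.38 SE, adjusted p = 0.981), Sdc1 (-0.03 ± 0.18 SE, adjusted p = 0.898) and Prdm1 (-0.18 ± 0.22 SE, adjusted p = 0.541) lay nearest to no difference. Without young replicate 6 the count was 5, adding Cd79a, Cd79b and Pax5 (adjusted p = 0.00616, 0.0112 and 0.0198). Over all genes 3100 of 16518 were then higher, beside 3572 of 16377 with all libraries. Without MCC950 replicate 2, Cd79a passed (adjusted p = 0.0367).

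Levels can be set between genes once divided by exon length. In young fractions the order of mean CPM per kilobase of exon began with Cd79a (12.5), Cd79b (8.46), Irf4 (2.81) and Prdm1 (2.22). Ms4a1 (1.47), Sdc1 (1.46) and Mzb1 (1.26) followed within their spread, and Pax5 (0.258) and Tnfrsf17 (0.240) came last. In saline fractions Cd79a (25.1) and Cd79b (16.7) were again at the head, but Mzb1 (8.87) stood above Irf4 (5.07), Prdm1 (2.77), Sdc1 (2.24) and Ms4a1 (1.92). Tnfrsf17 (1.17) and Pax5 (0.451) again came last. The means of young libraries include the high replicate 6, and by medians Prdm1 (2.31) stood above Irf4 (2.28) and Tnfrsf17 (0.226) above Pax5 (0.173) in that group. MCC950 fractions kept the saline order at the head, with Cd79a at 23.1, Cd79b at 12.8, Mzb1 at 7.35 and Irf4 at 3.31 CPM per kilobase. Exon length is the union of all annotated exons, and which of them were in use was not measured.

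Ratios of raw counts within a library, picked after their values were seen and given without a test, set single genes of the group against each other free of library size. Which cells the counts of each gene came from was not measured. Per 100 Cd79a counts there were 6.48 to 14.6 Mzb1 counts in young libraries (median 9.41), 20.7 to 49.9 in saline (median 30.5) and 14.5 to 43.7 in MCC950 (median 22.8). The young range lay wholly below the saline range and overlapped the MCC950 range only at its edge. Per 100 Ms4a1 counts there were 13.6 to 29.2 Mzb1 counts in young, 60.4 to 215 in saline and 47.3 to 178 in MCC950 libraries, with no overlap of young with either. The groups did overlap for Tnfrsf17, with 0.474 to 5.19 counts per 100 Ms4a1 counts in young, 4.04 to 23.6 in saline and 3.49 to 19.1 in MCC950 libraries. Young replicate 6, the library richest in B cell genes of its group, had the lowest of these, 6.48 Mzb1 counts per 100 Cd79a counts. Ms4a1 counts per 100 Cd79a counts moved the other way, from 42.1 to 64.9 in young to 23.3 to 38.7 in saline libraries. In MCC950 libraries they were 18.6 to 50.3, and MCC950 replicate 2 alone lay in the young range. From young to saline, Pax5 and Cd79b did not share this shift. Pax5 counts per 100 Cd79a counts had medians of 11.5 in young, 10.7 in saline and 12.1 in MCC950 libraries. Cd79b counts per 100 Cd79a counts had medians of 69.6 in young, 66.3 in saline and 53.5 in MCC950 libraries. For both ratios the ranges of all groups overlapped. For Cd79b, the overlap of MCC950 with saline rested on MCC950 replicate 2 alone, at 94.4. All other MCC950 libraries, at 48.5 to 57.3, lay below the lowest saline library, at 58.9.

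**Figure D4:**
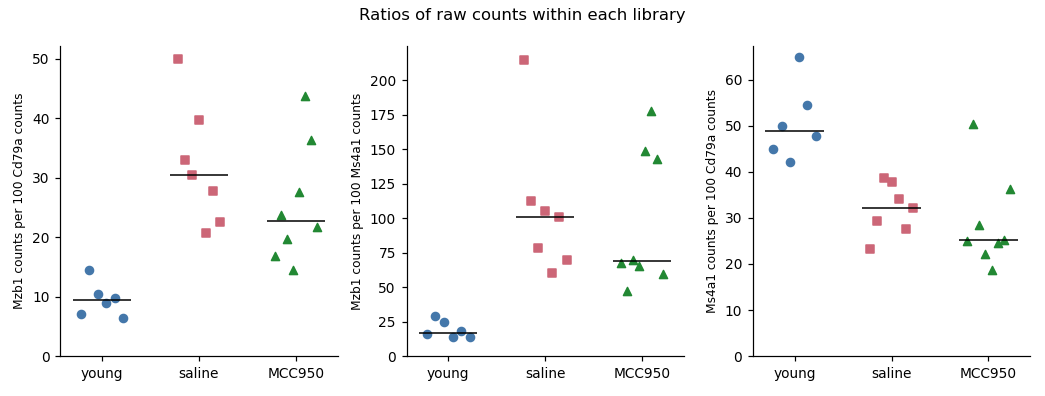
Raw counts of 1 gene per 100 counts of another in each library, with lines at group medians and axes from 0. Mzb1 per 100 Cd79a and per 100 Ms4a1 are higher in every saline library than in any young one, and Ms4a1 per 100 Cd79a is lower.

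Other genes of the same pathways were taken from lists drawn up from textbook roles, with earlier results of these data known. The median log2 fold change from young to saline was 0.69 for B cell surface and signalling genes, 0.66 for B cell transcription factors, 0.46 for plasma cell secretory genes and 0.48 for plasma cell surface genes. It was 0.42 for germinal centre genes, 0.77 for survival ligands and 1.00 for age-associated and B-1 cell genes, all beside 0.02 for all genes tested. Of 19 further B cell surface and signalling genes, 5 rose from young to saline and none fell. Beside this and the list and marker counts below, 12.2% of all genes tested rose and 12.4% fell. Tnfrsf13c, the BAFF receptor of mature B cells, went from a mean of 1.60 to 4.44 CPM (log2 fold change 1.50 ± 0.40 SE, adjusted p = 0.00887). Btk (0.92 ± 0.26 SE, adjusted p = 0.0129) and Blnk (0.48 ± 0.16 SE, adjusted p = 0.0271), which carry the signal of the B cell receptor, also rose. Of 10 further B cell transcription factors 3 rose, among them Pou2af1, a coactivator of immunoglobulin genes (1.27 ± 0.36 SE, adjusted p = 0.0134), together with its partner Pou2f2 (0.80 ± 0.27 SE, adjusted p = 0.0317) and Bcl6, the master factor of germinal centre B cells (0.62 ± 0.19 SE, adjusted p = 0.0238). No gene of either list passed between MCC950 and saline. For that comparison, here and below, the shares of all genes were 11.9% higher and 4.86% lower.

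**Figure D5:**
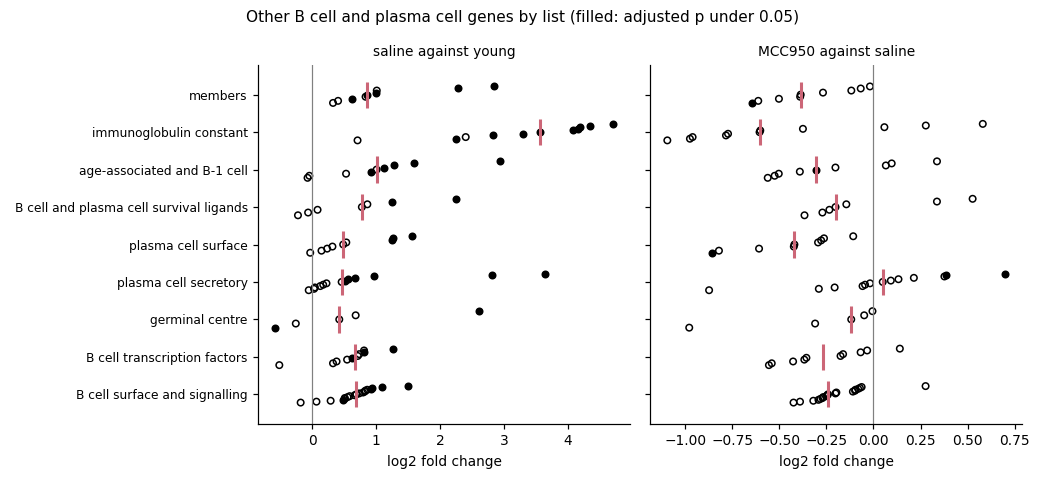
Fitted log2 fold changes of the genes of 8 related lists and of the 9 genes (top row, called members), with 1 circle per gene, filled where the adjusted p was under 0.05, and red lines at list medians. Immunoglobulin constant genes lie farthest right for saline against young (median 3.56), and the horizontal scales of the panels differ.

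Antibody genes showed the largest differences. Of 11 immunoglobulin constant genes tested 9 rose from young to saline and none fell, with a median log2 fold change of 3.56. Igkc, the kappa light chain, rose by 4.07 ± 0.50 (SE, adjusted p = 1.9e-05), Ighm, the heavy chain of IgM, by 4.15 ± 0.64 (SE, adjusted p = 0.000111), and Igha, that of IgA, by 3.30 ± 0.53 (SE, adjusted p = 0.00017). Summed over the list, they took 312 to 994 CPM in young, 7220 to 10135 in saline and 1624 to 12236 in MCC950 libraries. In these TMM-scaled values 6 of the 8 MCC950 libraries lay below every saline library, at 1624 to 4346 CPM, and replicates 6 and 7 were at 10307 and 12236 CPM. Constant genes of close sequence can share reads, so single subclasses are uncertain. None passed between MCC950 and saline, where the median was -0.60.

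Of 13 plasma cell secretory genes 6 rose from young to saline. Jchain, which joins IgM and IgA into polymers, went from a mean of 29.2 to 365 CPM (3.64 ± 0.49 SE, adjusted p = 3.4e-05). Ssr4 (0.56 ± 0.09 SE, adjusted p = 0.000186) and Sec11c (0.67 ± 0.11 SE, adjusted p = 0.000226), which handle proteins entering the endoplasmic reticulum, rose as well. Xbp1, the transcription factor of the secretory program that many cell types use, measured 97.9 CPM in saline libraries (0.22 ± 0.11 SE, adjusted p = 0.164). Between MCC950 and saline, the chaperone Hsp90b1 (0.39 ± 0.12 SE, adjusted p = 0.0363) and Creld2 (0.70 ± 0.18 SE, adjusted p = 0.0131), a protein of the stressed endoplasmic reticulum, were higher, and both are made by all secretory cells. These 2 of 13 are near the share of all genes that were higher, 11.9%. Jchain was then at 199 CPM in MCC950 libraries (-0.87 ± 0.40 SE, adjusted p = 0.134).

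Of 9 plasma cell surface genes 3 rose from young to saline: Cd28 (1.27 ± 0.33 SE, adjusted p = 0.00785), Tnfrsf13b (1.24 ± 0.33 SE, adjusted p = 0.00884) and Ccr9 (1.56 ± 0.48 SE, adjusted p = 0.0219). Cd28, which is best known as a T cell costimulator, was the only one lower after MCC950 (-0.86 ± 0.28 SE, adjusted p = 0.0418). Tnfrsf13b, the TACI receptor for BAFF and APRIL, measured 2.66 CPM in saline and 1.50 CPM in MCC950 (-0.82 ± 0.29 SE, adjusted p = 0.0525).

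Of 7 ligands and niche factors tested that keep these cells in place, 2 rose from young to saline. Cxcl13, the chemokine that draws B cells into follicles, went from 1.18 to 5.63 CPM (2.24 ± 0.41 SE, adjusted p = 0.000533), and Vcam1, an adhesion molecule, from 25.1 to 59.8 CPM (1.25 ± 0.37 SE, adjusted p = 0.0159). The ligands of the BCMA receptor did not pass, with Tnfsf13b (BAFF) at 0.77 ± 0.32 (SE, adjusted p = 0.0805) and Tnfsf13 (APRIL) at 0.86 ± 0.36 (SE, adjusted p = 0.0826). None of the 7 passed between MCC950 and saline. Of 9 genes of age-associated and B-1 cells 5 rose from young to saline, among them Fcrl5, an Fc receptor-like protein of B cells (2.94 ± 0.71 SE, adjusted p = 0.00462), and Bhlhe41, a transcription factor of B-1 cells (1.12 ± 0.27 SE, adjusted p = 0.00413). Itgam (1.28 ± 0.31 SE, adjusted p = 0.00435) and Itgax (0.92 ± 0.26 SE, adjusted p = 0.0146) of that list are integrins of macrophages and dendritic cells too. Cd9 of the list was lower after MCC950 (-0.30 ± 0.08 SE, adjusted p = 0.0157). Of the germinal centre list, Fas, a death receptor of many cell types, fell by 0.58 ± 0.13 (SE, adjusted p = 0.00342).

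Markers of other white cells were counted in the same way. From young to saline, 5 of 10 T cell markers rose, as did 4 of 7 natural killer cell markers tested, 3 of 8 plasmacytoid dendritic cell markers and 3 of 10 macrophage markers. The lists share genes, since Ly6d and Ccr9 of the plasmacytoid dendritic cell markers that rose are also counted above among B cell and plasma cell surface genes, and Itgam of the macrophage markers among age-associated genes. None of 5 neutrophil markers tested passed. Summed T cell markers ran from 9.10 to 19.98 CPM in young, 21.2 to 33.1 in saline and 10.6 to 79.4 in MCC950 libraries, and no marker was at 0 in every library. Summed macrophage markers ran from 444 to 2230 CPM in young, 1616 to 3925 in saline and 1072 to 3997 in MCC950 libraries. Between MCC950 and saline no marker of these 5 cell types passed. All 7 endothelial markers fell from young to saline, as did 4 of 7 mesangial and fibroblast markers while 2 rose, and none of 5 red cell markers tested passed. The highest sum of T cell markers in the young group was in replicate 6, and in the MCC950 group replicates 8 and 7 were the highest in both sums. Tubule markers bear on Sdc1, which epithelia also make. Between MCC950 and saline, 5 of 8 proximal tubule markers were higher, and of 10 markers of the loop, distal tubule and collecting duct 3 were lower and 1 was higher. Summed, the latter ran from 3050 to 4529 CPM in saline and from 2268 to 4033 CPM in MCC950 libraries. Proximal tubule markers summed to 1757 to 4010 CPM in saline and 2429 to 7435 CPM in MCC950 libraries, lowest in MCC950 replicates 7 and 6. The part of these cells in the levels of Sdc1, Irf4, Prdm1 and the other genes of the group was not tested.

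Genes whose centred log2 CPM lay nearest to each of the genes with a wide range across groups were named by the root mean square difference over the 21 libraries, as a description. For Cd79a these were Blk (0.189), Cd2 (0.192) and Ly6d (0.198), and for Cd79b they were Cd37 (0.193), Fcrla (0.197) and Siglecg (0.214). Near Pax5 lay Blk (0.344) and Cacna1i (0.353). Mzb1 lay nearest to the lambda light chain segments Iglj2 (0.508) and Iglc2 (0.511), then to Ctla4 (0.573). Around Tnfrsf17, at 0.614 or more, were a gene model without a name, Gpr55 (0.647) and Slc43a1 (0.696).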

How the data were processed

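RNA was sequenced from 21 podocyte fractions, 1 library each. The authors trimmed reads with Trim Galore, aligned them to mm10 with Bowtie2 and deposited raw read counts per gene from featureCounts. Annotation, strand setting and tool versions are not given in the sources used here. A normalized table with columns for 20 libraries was not used. Gene IDs were named from RefSeq (GRCm38.p6; 25275 of 27179), and exon lengths and overlaps came from GENCODE annotation of the same build.

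All 3 groups entered one edgeR 4.0.16 fit (R 4.3.3) with TMM scaling, filterByExpr and the quasi-likelihood F test, and p-values were adjusted by Benjamini-Hochberg over 16377 genes. The SE is the log2 fold change over the square root of F. CPM used TMM-scaled totals that include mitochondrial counts. A p-value measures only the spread between these samples. The alternatives were DESeq2 1.42.0, its size factors in edgeR, no filter, no mitochondrial genes, equal depth, only the compared groups, a replicate block and each library left out. The code was tested on simulated data.

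The genes and lists were chosen with earlier results of these data known. Named were all 9 genes, and from each related list the 3 smallest p in saline against young and in MCC950 against saline, plus Jchain, Igkc, Ighm, Igha, Xbp1, Tnfsf13b and Tnfsf13, of which the text gives those its results turn on. Some items that the rule names are not reported here. Marker lists for podocytes, other kidney cells, red cells and white cells are given by counts and sums. The 3 nearest profiles are named for genes whose group means span more than 1 log2 unit. No 2 libraries agreed within sampling noise (lowest chi-square per degree of freedom 17.7 within a group).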

Additional observations from a re-analysis of the deposited data

Results flagged for a closer look

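Of the 27 sets of values that 9 genes in 3 groups give, 3 held a library whose gap to its nearest neighbour, divided by the range of the group, passed Dixon's limit for a single outlying value. Chance alone passes that limit in about 5% of sets of independent, normally distributed values. These sets share libraries and hold CPM without a log, so that rate is no baseline for the 3. Pax5 in young replicate 6 stood at 6.73 CPM with the next young library at 2.64. Cd79b in MCC950 replicate 7 stood at 33.5 CPM with the next at 22.0, and Irf4 in the same library at 30.2 CPM with the next at 17.9. Both libraries were also high for most of the other genes of the group, and values without them are given beside the results they move.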

How the results depend on the processing

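The counts of genes passing did not move by more than 1.5 times with DESeq2, its size factors in edgeR, no filter on low counts, mitochondrial genes left out or equal depth. Replicate numbers did not pair the samples (correlations of same-numbered deviations ran from -0.144 to 0.401), and a fit with the replicate number as a block called 3 genes lower in MCC950 than in saline. Fitting only the 2 groups compared called 2. Over all genes, 904 of 16377 were lower in the block fit and 1076 of 16191 in the fit of 2 groups. With young replicate 6 and MCC950 replicate 7 both left out, a choice made after seeing the data, 7 genes were higher in saline than in young, 3 were lower in MCC950 than in saline and 5 were higher in MCC950 than in young. Over all 16443 genes then tested, these counts were 2504, 930 and 3627. In fits that each left out 1 library, the count higher in saline than young ran from 2 to 7, the count lower in MCC950 than saline from 1 to 3 and the count higher in MCC950 than young from 2 to 5. Over all genes these counts ran from 1353 to 2270, 515 to 1007 and 2556 to 3725. Signs turned only for log2 fold changes near 0 that passed no test. Ms4a1 in MCC950 against young was -0.0118 with DESeq2's size factors, -0.0203 with DESeq2, -0.0542 with the replicate block and -0.0342 at equal depth. Pax5 in MCC950 against saline was 0.0123 with the block and 0.0633 at equal depth. With a library left out, Cd79a ran from -0.31 to 0.00705, Pax5 from -0.21 to 0.16 and Tnfrsf17 from -0.24 to 0.12 in MCC950 against saline, and Ms4a1 from -0.19 to 0.46 and Sdc1 from -0.15 to 0.0280 in MCC950 against young. The causes were not tested. DESeq2 also called Cd79a higher in saline (adjusted p = 0.0352) and in MCC950 (adjusted p = 0.0492) than in young. With no TMM scaling the mean level of Sdc1 in saline libraries was 7.65 CPM. Depth limits Tnfrsf17 most, at 1 to 10 counts in a young library.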
